A study of Homo sapiens with 8 samples.

Results

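The genes described here are keratins and epithelial junction genes in MDA-MB-231, a line from a breast adenocarcinoma, and HT1080, a line from a fibrosarcoma. They were chosen by name, with earlier results of these data known. The 10 genes are the keratins KRT7, KRT8, KRT80, KRT81, KRT18 and KRT19, the junction plaque genes JUP and DSP, and the protease inhibitors SPINT1 and SPINT2. Of these, 9 genes matched 14 of the 24526 probes by a current or former symbol, among 16922 genes with a named probe. KRT81 matched no named probe and was not analysed here. Cells of either line received a scrambled siRNA as control or one directed at VRK1, a nuclear serine/threonine kinase, which made 4 groups of 2 Illumina bead arrays. Every siVRK1 array used the same siRNA, number 308, so its effects and those of the loss of VRK1 cannot be told apart. All groups were cultured with 10% fetal bovine serum for 24 h, and RNA was taken 42 h after the siRNA was added. The labels do not say whether the 2 replicates of a group were separate cultures, so p-values measure only the spread between these arrays, which may be technical.

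Keratins are intermediate filament proteins of epithelial cells, built as pairs of a type I (acidic) and a type II (basic) chain. KRT8 and KRT18 form the basic pair of simple, glandular epithelia, and KRT7 and KRT19 are added in many ducts. Desmosomes tie these filaments to the membrane, with plakoglobin (JUP) and desmoplakin (DSP) in their plaque, and SPINT1 and SPINT2 are Kunitz-type inhibitors that hold membrane serine proteases such as matriptase in check. MDA-MB-231 is known as a line of epithelial origin with many mesenchymal traits, and HT1080 as a line of mesenchymal origin.

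Values are log2 intensities as the authors deposited them. A difference of 1 is a change of signal by a factor of 2 on this scale, and background signal that was not removed shrinks the differences of dim probes. Each array had a median of 5.93 log2 over all probes, and the probes of 37 other keratin genes that are silent by the filter used here read between 5.4 and 6.14 on all 8 arrays, which is called background level below. Genes were tested where the highest group mean of a probe reached 6.08 log2, which left 9451 genes, 8 of the 9 measured keratin, junction and SPINT genes among them. DSP did not pass. KRT7, KRT19, JUP, SPINT1 and SPINT2 passed through the MDA-MB-231 arrays alone, so tests over all 9 genes with no filter are given as well.

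VRK1 itself stood at 7.93 and 7.61 log2 in MDA-MB-231 controls against 6.23 and 6.74 after siVRK1, and at 7.84 and 7.88 against 6.57 and 6.51 in HT1080. The target was lower on every siVRK1 array than on every control array of its line. Replicates correlated with r from 0.991 to 0.995 across probes, and the SD of their difference over genes lay between 0.239 and 0.269 log2 for MDA-MB-231 and between 0.175 and 0.181 for HT1080. Of 8 leukocyte markers measured, PTPRC, CD3E, CD79A and ITGAM read from 5.45 to 5.88 log2, at background level on all arrays. The other 4 had a signal in MDA-MB-231 controls, with means of 8.90 log2 for CD68, 8.47 for LAPTM5, 8.16 for HLA-DRA and 8.03 for CD14, and CD68 had 9.92 in HT1080 controls. The part of these markers in the differences between the lines was not tested.

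The first comparison asked how much of the keratin and junction programme separates the lines before the knockdown. In control cells 6 genes (KRT7, KRT8, KRT80, KRT19, JUP and SPINT2) were lower in HT1080 with and without the filter, with differences between -1.42 and -5.29 log2, while KRT18 did not pass the test. Of the 8 genes tested, 7 were lower in HT1080, against 27.5% of the 9451 genes tested, but 5 of them had passed the filter only through the line where they were high. With no filter 6 of the 9 were lower, against 15.3% of 16922 genes. Since the genes were chosen with earlier results of these data known, setting them beside these shares is a description and no test. The siVRK1 arrays are separate arrays of the same lines, and there 7 of 8 genes were lower in HT1080 (28.1% of all genes tested were) and 7 of 9 with no filter (15.7%).

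Among the type II keratins, KRT7, a keratin of ducts and glands, had a signal in MDA-MB-231 alone. It read 9.23 and 9.27 log2 in MDA-MB-231 controls and 5.92 and 6.01 in HT1080 controls. All HT1080 arrays lay at background level and far below the MDA-MB-231 arrays. In such bulk RNA fewer cells that express a gene and less RNA per cell cannot be told apart. The difference was -3.29 log2 (SE 0.11, limma adjusted p = 8.6e-09), 9.78-fold in signal and a lower limit because HT1080 gave no signal above background. KRT8, the type II partner in simple epithelia, read 9.14 and 8.95 in MDA-MB-231 controls and 7.61 and 7.63 in HT1080 controls. The groups did not overlap, but unlike KRT7 the HT1080 arrays stayed well above background level. KRT8 differed by -1.42 log2 (SE 0.12, limma adjusted p = 6.73e-06), or 2.68-fold. KRT80, a type II keratin of differentiating epithelia, read 10.2 and 9.98 log2 in MDA-MB-231 controls and 8.50 and 8.55 in HT1080 controls. It too kept a clear signal in the fibrosarcoma line, and the difference was -1.56 log2 (SE 0.16, limma adjusted p = 3.0e-05). A dimmer KRT80 probe, from 5.79 to 6.58 over all arrays, differed by -0.65 log2 in the same direction with every kept probe tested.

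The type I keratins were at opposite ends. KRT19, a small keratin of ducts that lacks the usual tail, read 10.9 and 11.1 log2 in MDA-MB-231 controls and 5.78 and 5.69 in HT1080 controls. The difference was -5.29 log2 (SE 0.15, limma adjusted p = 2.35e-09), at least 39.0-fold in signal, with HT1080 at background level. KRT18, the partner of KRT8, read 7.59 and 7.65 in MDA-MB-231 controls and 7.51 and 7.38 in HT1080 controls. The arrays of the lines did not overlap there but lay close together, and the difference of -0.17 log2 (SE 0.10, 95% interval -0.40 to 0.06, limma adjusted p = 0.181) did not pass. On the siVRK1 arrays KRT18 differed by 0.01 log2 (95% interval -0.22 to 0.24), and its other probe read 6.48 to 6.83 over all 8 arrays. KRT8 and KRT18 are direct neighbours among the protein-coding genes of GRCh38.p14, with 0 genes between them, as are KRT80 and KRT7, and 7 genes lie between KRT19 and JUP. Neighbours therefore did not share a pattern in the first pair, where KRT8 differed between the lines and KRT18 did not pass the test.

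**Figure D1:**
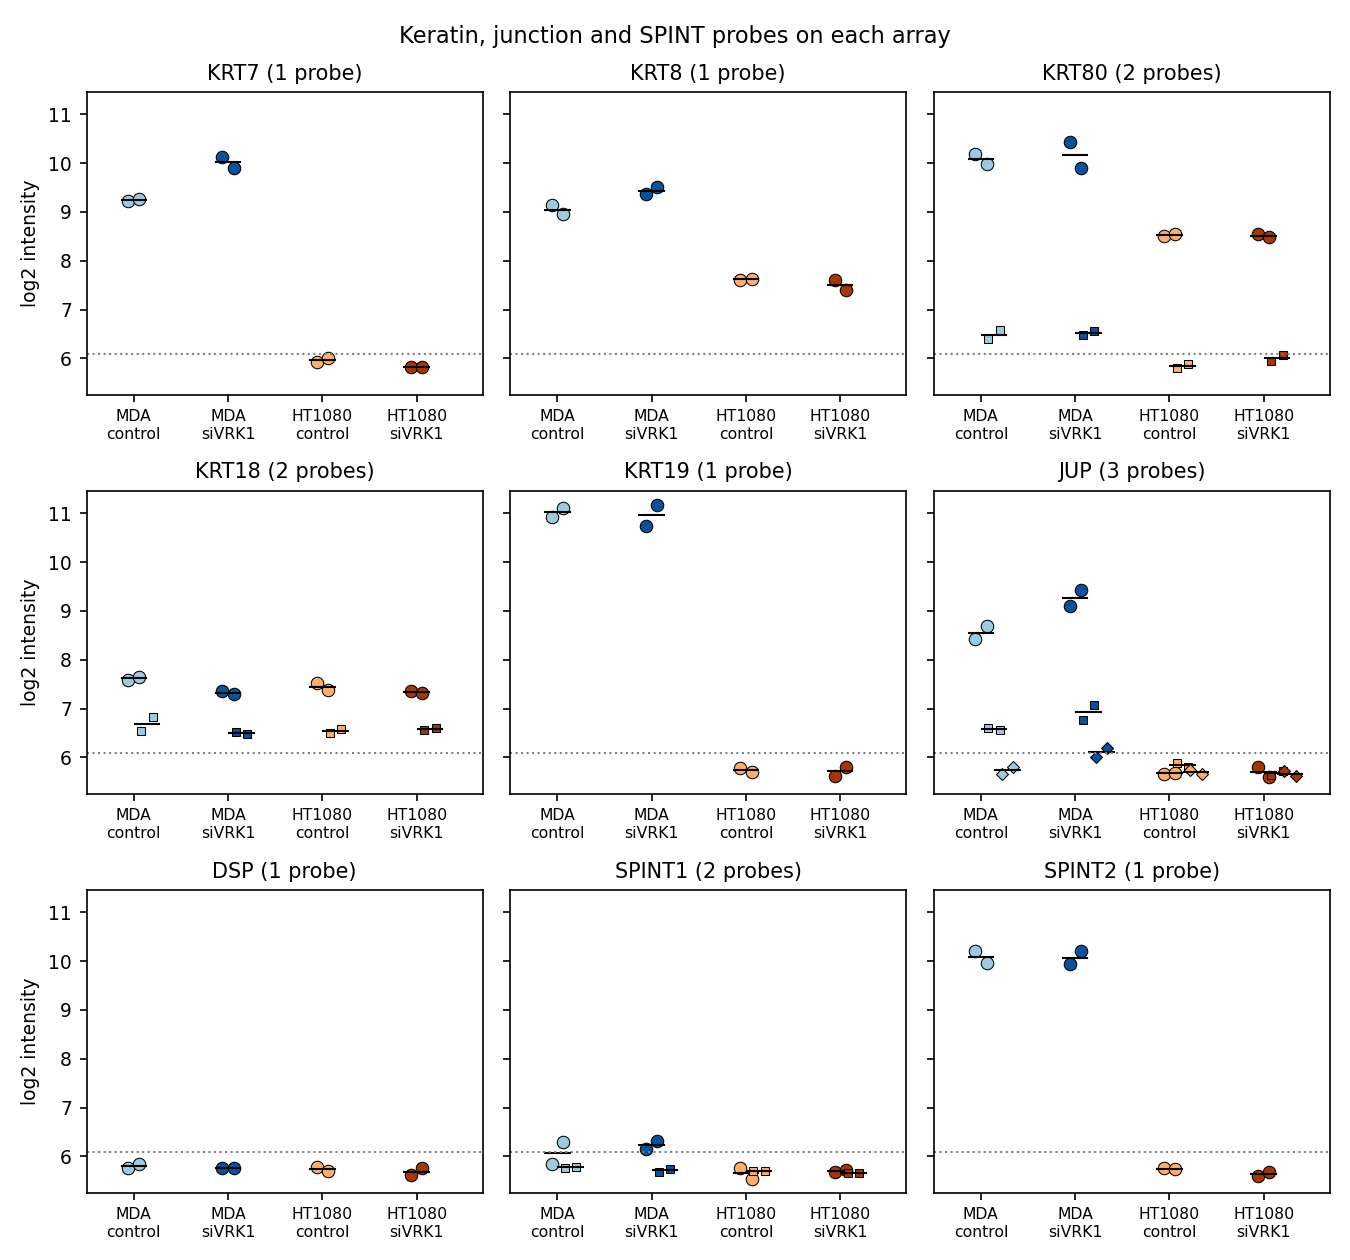
Log2 intensity (y axis) of every probe of the 9 measured genes on each of the 8 arrays, by group (x axis, MDA for MDA-MB-231). Points are arrays, short lines are group means of 2 arrays, symbols (circles, squares, diamonds) are the different probes of a gene, and the dotted line is the filter at 6.08 log2. KRT7, KRT19, JUP and SPINT2 lie at background level in HT1080, KRT8 and KRT80 lie above it in both lines, KRT18 is nearly level, and DSP is at background level everywhere.

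JUP, plakoglobin, serves both desmosomes and adherens junctions. Its brightest probe read 8.42 and 8.68 log2 in MDA-MB-231 controls and 5.66 and 5.69 in HT1080 controls. HT1080 lay at background level on every array, and the difference was -2.88 log2 (SE 0.14, limma adjusted p = 1.24e-07), at least 7.37-fold. A second JUP probe, ILMN_1741970, read 6.60 and 6.57 in MDA-MB-231 controls and 5.88 and 5.80 in HT1080 controls, the same direction at a dimmer level. The third, ILMN_2366864, was at background level in the control cells of both lines, with 5.66 and 5.80 against 5.75 and 5.66. DSP, which links the desmosome plaque to keratin filaments, read 5.61 to 5.83 log2 over all 8 arrays. Its probe was therefore at background level in both lines and under both siRNAs, and with no filter the lines differed by -0.05 log2 (SE 0.08, limma adjusted p = 0.719) in control cells. DSP rests on 1 probe, and a silent probe does not show a low gene level, as the third JUP probe shows.

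Promoter windows of 250 bases before the start were at hand for 4 of the 10 genes (KRT8, JUP, DSP and SPINT1) in 6 RefSeq entries of GRCh38.p14. They were searched on both strands for CAGGTG, the E-box that repressors of epithelial genes such as SNAI2 and ZEB1 are known to bind, since SNAI2 rose with siVRK1 on the average of the lines, as given with the knockdown. Windows of JUP, DSP and SPINT1 are printed to show where this E-box lies in them. Capitals mark the E-box, as CAGGTG or its reverse complement CACCTG. JUP has 2 listed starts. The window of the upstream one (chr17:41786712-41786961, minus strand) holds none and that of the other (chr17:41785977-41786226, minus strand) holds 2, which begin 54 and 43 bases before the start. DSP (chr6:7541421-7541670, plus strand) holds 2, beginning 178 and 85 bases before the start, and the second SPINT1 entry (chr15:40844227-40844476, plus strand) holds 1, beginning 26 bases before it.
JUP upstream start: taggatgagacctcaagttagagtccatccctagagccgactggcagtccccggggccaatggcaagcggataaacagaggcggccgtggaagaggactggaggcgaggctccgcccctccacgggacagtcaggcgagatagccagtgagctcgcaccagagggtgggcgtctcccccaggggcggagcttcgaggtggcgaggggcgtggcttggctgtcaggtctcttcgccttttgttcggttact
JUP downstream start: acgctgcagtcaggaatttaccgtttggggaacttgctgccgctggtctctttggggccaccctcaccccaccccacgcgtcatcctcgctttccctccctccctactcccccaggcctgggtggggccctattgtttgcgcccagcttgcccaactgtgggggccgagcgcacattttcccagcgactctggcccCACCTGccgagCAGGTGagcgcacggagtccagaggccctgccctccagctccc
DSP: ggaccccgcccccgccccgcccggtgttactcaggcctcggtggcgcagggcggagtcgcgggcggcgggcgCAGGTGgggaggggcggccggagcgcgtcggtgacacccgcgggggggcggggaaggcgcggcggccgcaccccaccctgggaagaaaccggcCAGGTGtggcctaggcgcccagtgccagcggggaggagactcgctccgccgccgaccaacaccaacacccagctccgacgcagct
SPINT1 second start: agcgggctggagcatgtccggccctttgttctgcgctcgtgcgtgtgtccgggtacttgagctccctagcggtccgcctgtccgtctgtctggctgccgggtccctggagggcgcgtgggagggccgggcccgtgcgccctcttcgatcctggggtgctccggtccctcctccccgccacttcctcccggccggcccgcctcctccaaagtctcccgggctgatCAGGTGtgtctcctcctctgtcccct
The first SPINT1 window and the KRT8 window hold 0. Of all 35116 RefSeq promoter windows of this length, 17.5% hold at least 1 such E-box and 2.53% hold at least 2. A match is a description of the letters and was not tested against binding. SNAI2 had a mean of 8.50 log2 in MDA-MB-231 controls and 7.23 in those of HT1080, the line where JUP was lower. On the siVRK1 arrays of MDA-MB-231 SNAI2 had a mean of 9.17 and JUP lay 0.71 above control, with neither change called. A part of SNAI2 in the levels of these genes was not tested.

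Of the Kunitz inhibitors, SPINT2 was clearly lower in HT1080 and SPINT1 only close to the threshold. SPINT2 read 10.2 and 9.96 log2 in MDA-MB-231 controls and 5.75 and 5.73 in HT1080 controls, a bright signal in one line and background in the other. The difference was -4.34 log2 (SE 0.13, limma adjusted p = 2.67e-09), at least 20.2-fold. SPINT1, its relative and an inhibitor of matriptase and of the hepatocyte growth factor activator, read 5.85 and 6.30 in MDA-MB-231 controls and 5.77 and 5.54 in HT1080 controls. The arrays did not overlap, but the values straddled background level and the 2 MDA-MB-231 arrays lay apart by more than they did from HT1080 at the nearest. SPINT1 differed by -0.42 log2 (SE 0.15, limma adjusted p = 0.0405). The call ended with no filter (adjusted p = 0.0634), with the control arrays fitted alone (0.0674), without MDA-MB-231 control 2 (-0.20 log2, 0.291), without HT1080 control 1 (0.0552) or 2 (0.233), and without either HT1080 siVRK1 array (0.0626). The other SPINT1 probe read 5.66 to 5.78 log2 on all arrays, which is background level.

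**Figure D2:**
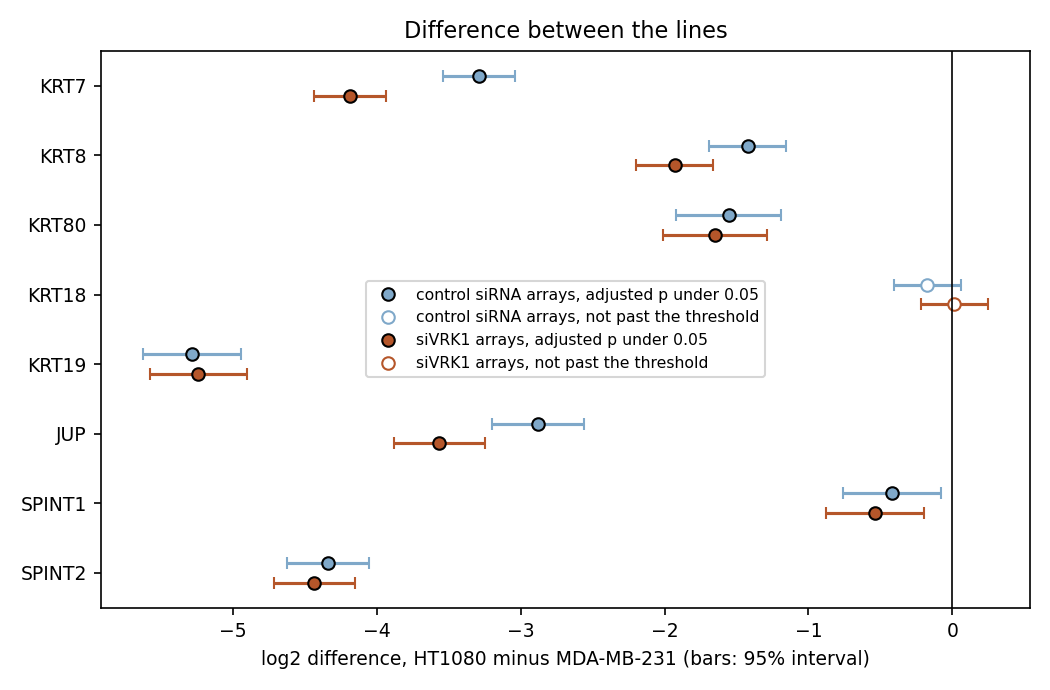
Difference in log2 intensity between the lines, HT1080 minus MDA-MB-231 (x axis), for the 8 tested genes (y axis), on control siRNA arrays and on siVRK1 arrays. Points are limma estimates from 2 arrays a group, bars are 95% intervals, and filled points passed at an adjusted p under 0.05. KRT19 and SPINT2 are farthest from 0, and KRT18 is the 1 gene whose intervals include 0.

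On the siVRK1 arrays KRT19 (-5.24 log2, SE 0.15, limma adjusted p = 2.39e-09), SPINT2 (-4.43, SE 0.13) and SPINT1 (-0.54, SE 0.15, adjusted p = 0.0133) were again lower in HT1080. The SPINT1 call ended without MDA-MB-231 siVRK1 2 or either HT1080 siVRK1 array (adjusted p from 0.0555 to 0.0727). KRT7 differed by -4.19 log2 (SE 0.11), JUP by -3.57 (SE 0.14) and KRT8 by -1.93 (SE 0.12), and the test of their change from control cells is given with the knockdown.

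KRT10 was the 1 bright gene among the other keratins, in both lines. Of 48 further type I and type II keratin genes, 42 had a named probe and 5 passed the filter. KRT10, a type I keratin of stratified epithelia, had a mean of 10.1 log2 in MDA-MB-231 controls, against 10.0 in those of HT1080. It was not called in control cells (limma adjusted p = 0.405). On siVRK1 arrays KRT10 was called higher in HT1080 (0.32 log2, SE 0.11, limma adjusted p = 0.0327). In control cells KRT15 (0.59 log2 higher in HT1080, limma adjusted p = 0.00241) and KRT79 (0.56, adjusted p = 0.0015) were called. Their group means were at most 6.60 log2, close to background, and both had passed the filter through HT1080 alone. The basal keratins KRT5 and KRT14 were among the 37 genes at background level on all arrays.

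Of the other desmosome and plakin genes, 7 of 14 passed the filter, 5 were lower in HT1080 and 1 was higher, where 53.7% of all genes were called in either direction. The desmosomal cadherins DSG2 (-1.02 log2, SE 0.12, limma adjusted p = 8.37e-05) and DSC2 (-0.84) and the cornified envelope plakin EVPL (-0.92) were lower, and PERP, a desmosomal membrane protein, was higher (0.55). Of the 7 genes, 2 had passed the filter through MDA-MB-231 alone. With no filter 5 of 14 were lower and 1 higher, with a median of -0.11 log2, beside 0.01 over all genes. Of all 16922 genes, 5069 were called in either direction with no filter. DSG1, DSG3, DSC1, DSC3, DSG4, PKP1 and PKP3 were at background level, with 5.52 to 6.12 log2.

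The cadherin genes CDH1 and CDH2 read near background in MDA-MB-231, where CDH11 had a mean of 9.62 log2 in control cells. CDH2, N-cadherin, read 6.15 and 6.11 log2 in MDA-MB-231 controls and 10.7 and 10.8 in HT1080 controls, a difference of 4.62 (SE 0.11, limma adjusted p = 7.17e-10). CDH1, E-cadherin, read from 5.61 to 6.17 log2 over all arrays, near background in both lines. In control cells HT1080 differed by -0.27 log2, which was not called with the filter. With every probe tested and no filter it was called (limma adjusted p = 0.0421). On siVRK1 arrays CDH1 was called lower in HT1080 (-0.47 log2, SE 0.11, limma adjusted p = 0.00402). It had passed the filter through MDA-MB-231 alone. Of 8 adherens junction genes tested, 4 were higher in HT1080 and 1, the alpha-catenin gene CTNNA1 (-0.82), was lower. Of all genes tested, 53.7% were called in either direction. Of the 8, 1 had passed the filter through MDA-MB-231 alone and 1 through HT1080 alone. With no filter 4 of 11 adherens junction genes were higher and 2 lower, where 5069 of 16922 genes were called in either direction.

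Among 8 tight junction genes tested, 5 were lower and 3 higher in HT1080, and 3 had passed the filter through MDA-MB-231 alone. For this list and the next, 53.7% of all genes tested were called in either direction. With no filter the same counts stood among 20 tight junction genes, with a median of -0.03 log2, where 5069 of 16922 genes were called. CLDN7 had the lowest value, -2.83 log2 (SE 0.26, limma adjusted p = 1.23e-05), followed by the scaffold TJP1 (-1.28) and CLDN1 (-1.20), while CLDN15 (1.06), CLDN12 (0.78) and the linker CGN (0.74) were higher. CLDN3, CLDN4 and OCLN were among 12 genes at background level. Of 6 genes of hemidesmosomes and their laminin, the integrin ITGB4 (-2.38, limma adjusted p = 5.0e-08) and the plakin PLEC (-1.21) were lower in HT1080. LAMB3 (2.05), DST (0.88) and ITGA6 (0.48) were higher. ITGB4 had passed the filter through MDA-MB-231 alone.

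Of the proteases and receptors that the SPINT inhibitors act on or near, 5 of 17 measured genes passed. ST14, matriptase, read 5.55 to 6.04 log2 on all arrays and PRSS8, prostasin, did not pass either. The probes of ST14 and PRSS8 thus gave no clear signal. TMPRSS2, a transmembrane protease, did pass the filter. Its mean was 6.18 log2 for MDA-MB-231 controls, just above background level, and 6.59 after siVRK1. HT1080 was lower on control arrays (-0.47 log2, limma adjusted p = 0.0181) and on siVRK1 arrays (-0.87, adjusted p = 0.000583). SCNN1A, a subunit of the epithelial sodium channel (-2.59 log2, limma adjusted p = 1.51e-05), and MST1R, a receptor tyrosine kinase (-0.94), were lower in HT1080. PLAU, urokinase (1.23), and MET, the hepatocyte growth factor receptor (0.51), were higher there. SCNN1A, MST1R and TMPRSS2 had passed the filter through MDA-MB-231 alone, the line where they are high. Of all genes tested, 53.7% were called in either direction. With no filter 3 of the 17 were lower in HT1080 and 2 higher, where 5069 of 16922 genes were called in either direction.

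The list of epithelial adhesion genes and transcription factors had 10 of 18 measured genes tested, 7 of which passed the filter through MDA-MB-231 alone, the line where they are high. With no filter 6 of the 18 were called lower in HT1080 and 0 higher, where 15.3% of all genes were called lower, and their median was -0.21 log2, beside 0.01 over all genes. EHF, an epithelial ETS factor (-2.27 log2, limma adjusted p = 1.67e-05), MAL2, a protein of apical transport (-1.99), and CD24 (-1.66) led it. EPCAM, ESRP2, GRHL1, GRHL2, GRHL3, OVOL1, RAB25 and CRB3 were at background level on all arrays (5.44 to 6.06 log2), so the probes of these epithelial genes gave no signal above background in MDA-MB-231. On the mesenchymal list 4 of 15 genes tested were higher in HT1080 and 7 lower, where 53.7% of all genes tested were called in either direction. SPARC (4.71 log2), CDH2 and ACTA2 (2.99) were higher in the fibrosarcoma line, but S100A4 (-6.80), CDH11 (-3.64) and COL5A1 (-3.21), which carry the same label, were higher in MDA-MB-231. Of the 15 genes, 5 had passed the filter through MDA-MB-231 alone, CDH11 and COL5A1 among them, and SPARC had passed through HT1080 alone. With no filter 4 of 20 mesenchymal genes were higher in HT1080 and 7 lower, with a median of -0.01 log2. Over all genes the median was then 0.01, and 5069 of 16922 were called in either direction. VIM, vimentin, read 11.4 to 12.1 log2 in all groups.

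**Figure D3:**
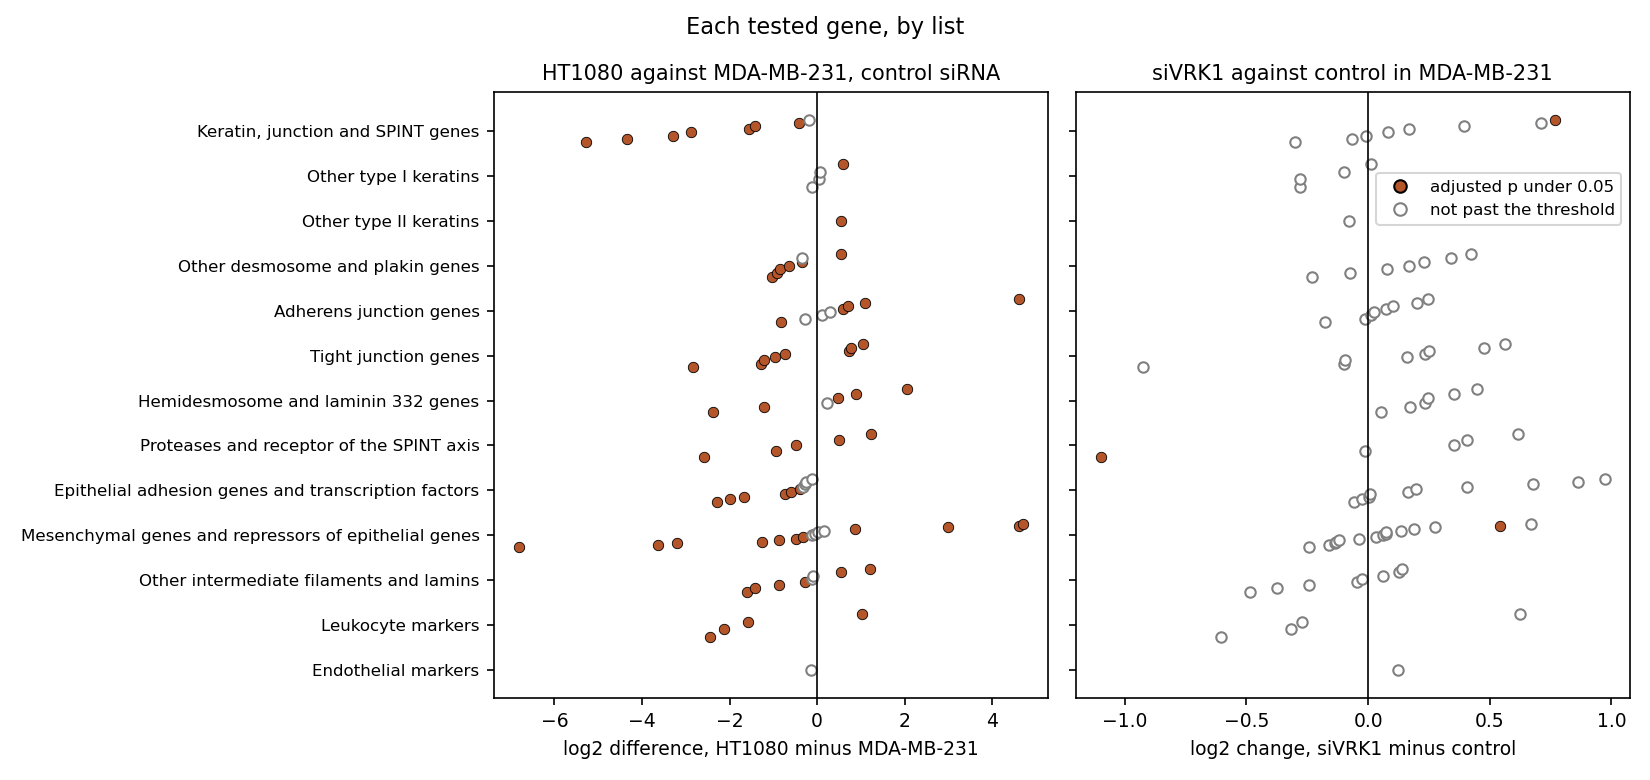
Each tested gene of the keratin, junction and SPINT set and of the other lists (y axis), as log2 difference HT1080 minus MDA-MB-231 in control cells (left x axis) and as log2 change with siVRK1 in MDA-MB-231 (right x axis). Each point is 1 gene from 2 arrays a group, filled where the limma adjusted p was under 0.05. Differences between the lines reach -6.80 log2, and with siVRK1 in MDA-MB-231 KRT7, PLAU and CDH11 are the 3 filled points.

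The second comparison asked whether siVRK1 altered these genes in MDA-MB-231. KRT7 rose and was the 1 gene of the 8 called, where 0.476% of all genes tested rose. KRT7 stood at 9.23 and 9.27 log2 in control cells against 10.1 and 9.90 after siVRK1. Both siVRK1 arrays lay above both controls, which were close to each other. By limma it changed by 0.77 log2 (SE 0.11, adjusted p = 0.0172), or 1.70-fold. The adjusted p was 0.0525 without MDA-MB-231 control 1 (0.74 log2), 0.0898 without siVRK1 1 (0.65), 0.0627 without HT1080 control 1 or 2, 0.0583 without HT1080 siVRK1 1 or 2, 0.0563 with background subtracted and 0.292 in a fit of that line by itself, and the call therefore rests on a spread shared with HT1080.

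JUP and KRT8 lay higher on the siVRK1 arrays of MDA-MB-231 without passing the test across all genes. JUP read 8.42 and 8.68 log2 on control and 9.10 and 9.43 on siVRK1 arrays, with no overlap, a change of 0.71 (SE 0.14, 95% interval 0.39 to 1.03, limma adjusted p = 0.0541). It passed without MDA-MB-231 control 2 (0.84 log2, adjusted p = 0.0481) and in 0 of the other 7 fits without 1 array, and the fits with a replicate block, given with the processing, also call it. Its dimmer probes had the same sign at a smaller size, 0.34 and 0.37 log2. KRT8 read 9.14 and 8.95 on control and 9.36 and 9.52 on siVRK1 arrays, again with no overlap, a change of 0.40 (SE 0.12, 95% interval 0.13 to 0.66, limma adjusted p = 0.172). KRT18, its type I partner, had the other sign. It read 7.59 and 7.65 on control and 7.35 and 7.29 on siVRK1 arrays, a difference of -0.30 log2 (SE 0.10, limma adjusted p = 0.225) that did not pass.

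The other genes of MDA-MB-231 showed overlapping arrays. KRT19 read 10.9 and 11.1 log2 on control and 10.7 and 11.2 on siVRK1 arrays (-0.07, 95% interval -0.40 to 0.27). SPINT2 read 10.2 and 9.96 against 9.94 and 10.2 (-0.01, 95% interval -0.29 to 0.27). KRT80 (0.08, 95% interval -0.28 to 0.44) and SPINT1 (0.17, -0.18 to 0.51) also missed the threshold. The bright KRT19 and SPINT2 signals thus gave values near 0 in the same cells in which KRT7 rose, although their intervals allow changes of up to 0.40 and 0.29 log2 in size. The median change of the 8 genes was 0.12 log2, beside 0.0029 over all genes tested.

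**Figure D4:**
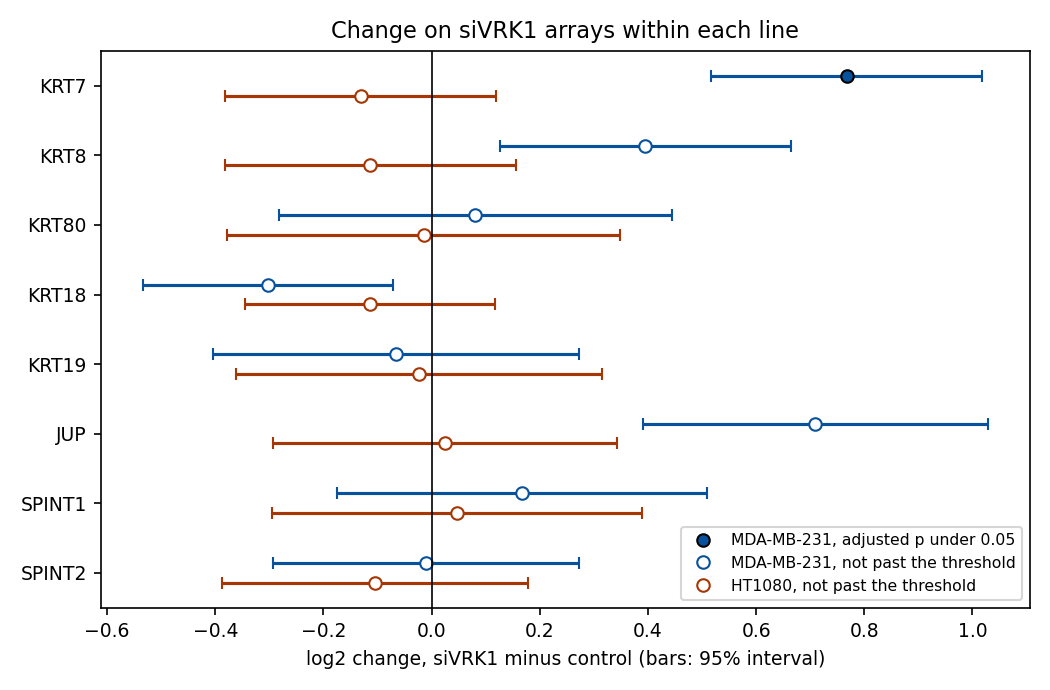
Log2 change, siVRK1 minus control (x axis), of the 8 tested genes (y axis) in MDA-MB-231 and in HT1080. Points are limma estimates from 2 arrays a group, bars are 95% intervals, and the filled point passed at an adjusted p under 0.05. KRT7 in MDA-MB-231 is the 1 filled point, JUP and KRT8 lie above 0 and KRT18 below 0 in that line, and all HT1080 intervals include 0.

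In HT1080 none of the 8 genes was called by limma, where 0.307% of all genes tested were. Of the 8, 0 had an unadjusted p under 0.05, against 981 of the 9451 genes tested. KRT8 read 7.61 and 7.63 log2 on control and 7.61 and 7.41 on siVRK1 arrays (-0.11, 95% interval -0.38 to 0.16). KRT80 read 8.50 and 8.55 against 8.54 and 8.48 (-0.01, 95% interval -0.38 to 0.35), and KRT18 7.51 and 7.38 against 7.35 and 7.31 (-0.11, 95% interval -0.35 to 0.12). These 3 are the genes with a signal above background in this line, and limma called none of them. KRT7, KRT19, JUP and SPINT2 were at background level under both siRNAs, where a fall could not be measured. Both siVRK1 arrays of KRT7, KRT8, KRT18 and SPINT2 lay below both controls in this line. The nearest KRT8 arrays were almost level, at 7.611 log2 with siVRK1 and 7.613 on control. KRT7 and SPINT2 were at background, so no fall can be read from their order. How often 2 arrays a group separate in this way over all genes was not counted, so non-overlap in either line is only a description.

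The difference of the knockdown change between the lines was tested directly, and limma called 0 of 9451 genes (582 at an unadjusted p under 0.05), with 3 of the 8 at an unadjusted p under 0.05. It was -0.90 log2 for KRT7 (SE 0.16, limma adjusted p = 0.349), -0.68 for JUP (SE 0.20, adjusted p = 0.597) and -0.51 for KRT8 (SE 0.17, adjusted p = 0.714), all as HT1080 minus MDA-MB-231. A rise of KRT7 particular to MDA-MB-231 was therefore not shown, and the HT1080 values of KRT7 and JUP were at background. Averaged over both lines KRT7 changed by 0.32 log2 (SE 0.08, limma adjusted p = 0.072), JUP by 0.37 (SE 0.10, adjusted p = 0.101) and KRT18 by -0.21 (SE 0.07, adjusted p = 0.192). None of the 8 was called there, where 2.54% of all genes were. These 3 had an unadjusted p under 0.05, as did 1471 of the 9451 genes tested.

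In MDA-MB-231 0.995% of all genes tested were called with siVRK1 in either direction, so lists of 6 to 10 genes would hold few calls in any case. There limma called 0 of 7 other desmosome genes, 0 of 8 adherens junction genes and 0 of 8 tight junction genes. It also called 0 of 6 hemidesmosome genes and 0 of 10 epithelial adhesion genes and factors. On these 5 lists 2, 0, 3, 2 and 3 genes had an unadjusted p under 0.05. Over all genes tested, 1244 of 9451 had an unadjusted p under 0.05 in that line. MAL2 stood highest at 0.97 log2 (SE 0.19, limma adjusted p = 0.05003), just short of the threshold, with 7.26 and 7.96 on control and 8.48 and 8.69 on siVRK1 arrays. The linker CGNL1 (0.56, adjusted p = 0.0624), ITGB4 (0.45, adjusted p = 0.0817) and PERP (0.42, adjusted p = 0.259) stood highest on their lists. All 6 hemidesmosome genes had positive values in MDA-MB-231, with a median of 0.24 log2. In HT1080 5 of the 6 were negative, with a median of -0.09, and the median on the average of the lines was 0.04. On that average 2.54% of all genes tested were called in either direction. CLDN12 had the lowest value of the tight junction list in both lines, -0.92 and -0.70, and fell on the average (-0.81, SE 0.16, limma adjusted p = 0.0323), a call that ended without MDA-MB-231 siVRK1 1 (0.0726), without any 1 HT1080 array (0.128 to 0.166), with no filter (0.0581) and with background subtracted (0.0567).

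On the mesenchymal list CDH11, a cadherin of mesenchymal cells, rose in MDA-MB-231 by 0.54 log2 (SE 0.11, limma adjusted p = 0.0475), a call that ended without any 1 of the 8 arrays (adjusted p from 0.0933 to 0.165). The level of SNAI2, known to repress CDH1 and other epithelial genes, rose by 0.79 on the average of the lines (SE 0.15, limma adjusted p = 0.0245). That call ended without MDA-MB-231 siVRK1 1 (adjusted p = 0.0517) and without any 1 HT1080 array (0.103 to 0.143). Its MDA-MB-231 controls stood at 8.78 and 8.22 log2 against 9.44 and 8.89 after siVRK1, with no overlap, and the change there did not pass by itself (0.67, adjusted p = 0.173). In HT1080 its mean was 7.23 on control and 8.16 on siVRK1 arrays, a change of 0.92 (SE 0.21, limma adjusted p = 0.13) that did not pass either. PLAU fell in MDA-MB-231 by 1.10 log2 (SE 0.15, limma adjusted p = 0.0144), from 11.25 and 11.02 to 10.03 and 10.05. The PLAU call ended without MDA-MB-231 siVRK1 1 (adjusted p = 0.0595), without HT1080 control 1 or 2 (0.062) and in a fit of that line by itself (0.142). The other 4 genes tested on the protease list were not called, with 3 of them at an unadjusted p under 0.05, where 1244 of 9451 genes were. Among leukocyte markers 0 of 4 tested were called, with 3 at an unadjusted p under 0.05, and the summed linear signal of the list was 1887 to 2126 on control and 1796 to 1981 on siVRK1 arrays of MDA-MB-231.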

How the data were processed

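RNA of 8 arrays was labelled as biotinylated cRNA and read on Illumina bead arrays, and the authors deposited 1 log2 intensity per probe and array. GenomeStudio is named in the submitters' processing notes; its version, the background step and the normalization are not given in the sources used here. The columns already shared nearly 1 distribution, so the deposited log2 values were used as they were. They hold no detection p and no missing value. Precision is limited by having 8 arrays.

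Probes were named through the platform annotation, with symbols updated by a gene table of GRCh38.p14: 21834 probes had 1 symbol, 0 had several and 2692 had none. A probe was kept where its highest group mean reached the median of that quantity (6.08 log2), which left 12263, and the kept probe with the highest mean stood for its gene, giving 9451 genes. limma 3.58.1 in R 4.3.3 (lmFit, eBayes) fitted a mean per group over all 8 arrays, with 4 residual degrees of freedom and a prior of 5.86. Tests were two-sided, p-values were adjusted by Benjamini-Hochberg over all genes tested, and calls were made at an adjusted p under 0.05. SE and 95% intervals are from that fit, which was tested on simulated data.

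The genes, lists, named-gene rule and alternatives were chosen with earlier results of these data known. The rule named VRK1, the 10 genes with every probe, up to 3 called genes in each direction per list and comparison, or else the highest and lowest, and the 2 genes most like each member. Other list genes are given by their levels and were chosen after their values were seen. Alternatives were the filter, the probe rule, background subtraction, quantile normalization, an intensity trend, separate fits, a replicate block and leaving out each array.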

Additional observations from a re-analysis of the deposited data

How the results depend on the processing

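With 2 arrays a group, calls depend on the shared estimate of spread, and dim probes have no detection p. In MDA-MB-231 the count of keratin, junction and SPINT genes called with siVRK1 was 1 (KRT7); it was 0 with background subtracted and 0 with the arrays compared fitted alone, 2 (KRT7 and JUP, JUP at adjusted p = 0.0441) with a replicate block and 2 (JUP at 0.0102) with a replicate block within each line, and from 0 to 2 leaving out 1 array. On the average of the lines it was 0, and 2 (JUP and KRT7) with a replicate block within each line. Between the lines it was 7 and stayed from 6 to 7 under every alternative run, in control and in siVRK1 cells, and it stayed 0 in HT1080 and for the difference of the changes. The replicate numbers were not taken to pair arrays, since the deviations of same-numbered arrays correlated with r = 0.485 within MDA-MB-231 but -0.0485 within HT1080.

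Over all genes the count in MDA-MB-231 was 94, and 26 with background subtracted, 0 fitted alone, 297 with the block within lines and 10 to 108 leaving out 1 array. In HT1080 it was 29, and 12, 84, 66 and 0 to 39, with 16 under the shared block. On the average it was 240, and 127 with background subtracted, 501 with the block within lines and 23 to 273 leaving out 1 array. For the difference it was 0, and 3 with the block within lines and 0 to 1 leaving out 1 array. One direction reversed, for the hemidesmosome gene CD151 between the siVRK1 arrays of the lines (-0.23 log2, not called), where another probe read 0.33 with every kept probe tested. Without 1 control array of the lines compared, the calls between control cells of PERP, DSC2, CLDN12, ITGA6, MET and LMNB1 also ended in some fits (adjusted p from 0.0516 to 0.176). The cause of these changes was not tested.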

Other observations

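Over the 8 arrays the level of each tested gene was set against all other genes tested, and the 2 most alike by Pearson's r are given as a description, since the arrays share 2 lines and most of each r is the gap between them. FCGRT (r = 0.999) and TNFSF10 (0.999) were most like KRT7, PHYHD1 (0.997) and COL18A1 (0.997) like KRT8, and MORC4 (0.999) and CLIP4 (0.997) like KRT80. ADGRF5 (0.999) and SPRY1 (0.999) were most like KRT19, DUSP23 (1.0) and MAGED1 (0.999) like SPINT2, and MFSD6 (0.999) and CST1 (0.998) like JUP. KRT18, with little gap between the lines, had lower values, with TERF2IP (0.957) and MOCS1 (0.941), as did SPINT1 with DNHD1 (0.985) and WDR45 (0.982). KRT18 correlated with KRT8, its filament partner, at r = 0.175 over the same arrays, against 0.993 for KRT8 with KRT7.

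Of the other intermediate filament genes, 8 of 14 passed the filter, with 4 lower and 2 higher in HT1080 controls. Of all genes tested, 53.7% were called in either direction there. NES and SYNM were among 3 genes that passed through MDA-MB-231 alone, and NEFL passed through HT1080 alone. With no filter 4 of the 14 were lower in HT1080 controls and 2 higher, where 5069 of 16922 genes were called in either direction. In HT1080 controls NES, nestin (-1.60 log2, limma adjusted p = 2.25e-06), SYNM, synemin (-1.42), and LMNA, lamin A/C (-0.87), were lower. NEFL, the light neurofilament chain (1.20), and LMNB1, lamin B1 (0.54), were higher. With siVRK1 none of the 8 was called in either line by limma, with 2 at an unadjusted p under 0.05 in MDA-MB-231 and 1 in HT1080. Over all 9451 genes tested, 1244 were under that value in MDA-MB-231 and 981 in HT1080. LMNB1 had the lowest value in both lines (-0.49 in MDA-MB-231, adjusted p = 0.244, and -0.35 in HT1080, adjusted p = 0.551).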
